A study of Homo sapiens with 2 samples.

Results

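Rab GTPases are the small switch proteins that give each membrane of the vesicle traffic its identity. Their genes were taken from the expression table of 1 experiment as all single-symbol rows whose name is RAB, a number and at most 1 letter, using the row with the higher mean for the 2 symbols that had more than 1 row. This gave 57 genes among 24991 single-symbol genes. Of the 57, 43 had an FPKM (fragments per kilobase of transcript, scaled to the library's number of mapped fragments) of at least 1, and each of the 43 reached it in both libraries. RNA came from PLC/PRF/5, an established human hepatocellular carcinoma line, kept under hypoxia in both groups. The vector group (EV) carried an empty vector and the NFX1 group (NFX1_OE) overexpressed NFX1, a zinc-finger transcription factor. Each group was 1 library, and whether either came from a clone or a pool of cells is not given in the sources used here. All differences below therefore compare 2 libraries, without a replicate check and without a test.

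A Rab protein cycles between a GDP-bound form, held in the cytosol by a GDP dissociation inhibitor, and a GTP-bound form anchored in a membrane by prenyl groups at its C-terminus. Exchange factors load GTP where a Rab should act, effectors such as tethers and motor adaptors bind the GTP form, and GTPase-activating proteins end the signal. In hepatocyte-derived cells this traffic carries secreted plasma proteins outward, returns receptors to the surface and delivers cargo to lysosomes, the organelle that the study is about.

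The overexpressed gene itself was at 4.21 FPKM with the empty vector and at 56.0 FPKM with NFX1, a ratio of 13.3. By estimate, 26.3 M fragments lie behind the vector values and 29.9 M behind the NFX1 values. These estimates rest on only 6 olfactory receptor genes in the vector library and 7 in the NFX1 library, each taken to hold 1 fragment. All 10 listed hepatocyte markers had an FPKM of at least 1 in a library, with sums of 7006 and 7941 FPKM. SERPINA1 alone gave 5935 and 6807 FPKM of these sums, while ALB, albumin, at 0.776 and 1.06, TTR at 1.38 and 1.96, and FGB at 1.70 and 1.64 FPKM were near that floor. None of the 3 endothelial and none of the 4 fibroblast markers reached it. Of the 4 blood cell markers 3 did, with sums of 107 and 114 FPKM, while PTPRC, the pan-leukocyte gene, was listed at 0 in both libraries. In RNA from whole cultures, fewer cells of a kind and less RNA per cell cannot be told apart.

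The Rab genes as a group had nearly the same levels in both libraries. The change, log2((NFX1 FPKM + 1)/(vector FPKM + 1)) with 1 as the pseudocount, had a median of -0.02 over the 43 genes, beside 0.01 over all 11182 genes with an FPKM of at least 1. Of the 43, 21 had the higher value in the NFX1 library and 22 the lower one, so 48.8% had a change above 0 against 52.0% of all genes. Counted on this scale, 6 Rab genes (RAB26, RAB40B, RAB1B, RAB40C, RAB37 and RAB11B) were higher with NFX1 by at least 1.2-fold, 14.0% of the members, where the background over all genes was 11.5%. Another 3 (RAB29, RAB9A and RAB3B) were lower by as much, 6.98% of the members against a background of 4.95%. With libraries scaled to equal upper quartiles the median of all genes was -0.05 and the split turned, to 2 higher (4.65%) and 6 lower (14.0%). All genes turned likewise, to 5.47% higher and 10.9% lower. At 1.1-fold it was 10 higher and 11 lower, with backgrounds of 29.4% and 20.7%. On the same scale no member was past 1.5-fold, where the background was 0.420% higher and 0.215% lower. In the authors' deposited table none of the 49 tested Rab genes was marked significant, against 0.120% of all tested rows, and the lowest p was 0.0583 for RAB26, with q = 0.999.

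**Figure D1:**
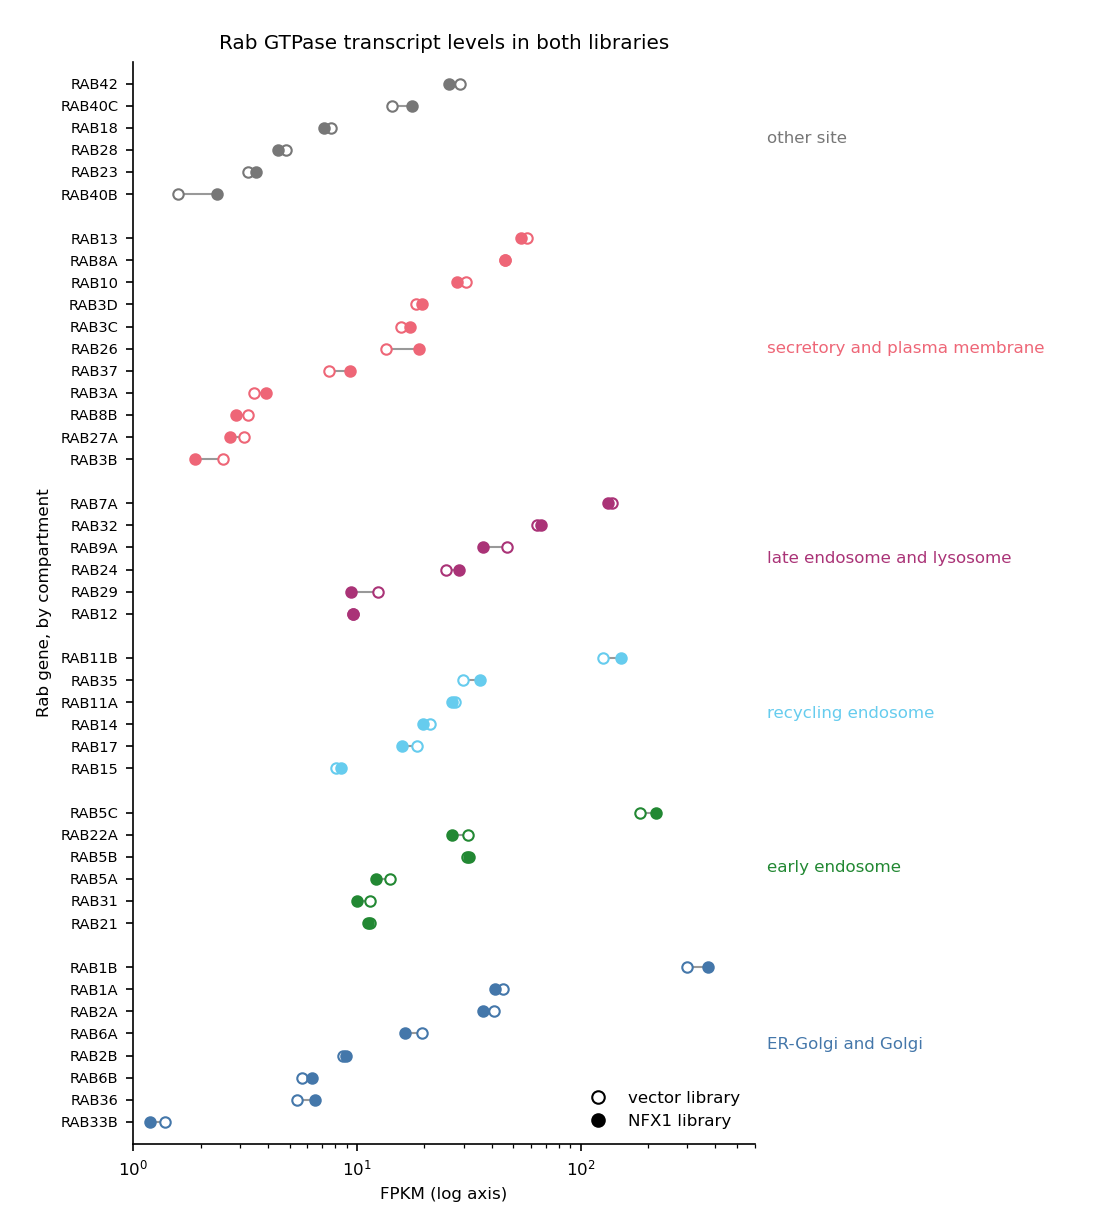
FPKM of the 43 Rab genes with at least 1 FPKM, on a log axis, grouped by compartment; open circles are the vector library, filled circles the NFX1 library, and there is 1 library each. Levels span from 1.19 FPKM for RAB33B to 370.1 FPKM for RAB1B, and the circles of each gene lie close together compared with that span.

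Levels differed far more between Rab genes than between libraries. Summed FPKM over the 57 genes was 1502 in the vector library and 1606 in the NFX1 library, a ratio of 1.07. The 4 highest genes were RAB1B, RAB5C, RAB7A and RAB11B, and they made up 49.8% of the vector sum and 54.3% of the NFX1 sum. Their own sum went from 749 to 872 FPKM, a ratio of 1.16, while the sum of the other 53 genes went from 754 to 734 FPKM, a ratio of 0.974. The order of levels was almost the same in both libraries, with a Spearman coefficient of 0.988 over the 43 genes as a description. FPKM is per transcript length, so length alone does not bar comparing these levels between genes. Whether base composition affected the levels was not tested.

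Among Rabs of the endoplasmic reticulum to Golgi route and the Golgi, 8 of 15 genes were expressed, with a median change of -0.04 and 4 above 0. RAB1B and RAB1A encode the pair that drives vesicles from the endoplasmic reticulum to the Golgi. RAB1B (chromosome 11, 66036056 to 66044963, hg19) was the most abundant Rab gene, at 299 FPKM with the empty vector and 370.1 FPKM with NFX1. That is 1.24 times the vector level. The 95% exact (Clopper-Pearson) interval of this ratio, from estimated fragments, is 1.21 to 1.27 and covers counting error only. RAB1A went the other way, from 45.1 to 41.6 FPKM, 0.924 times, with an interval of 0.870 to 0.981. RAB1B thus made up 86.9% of the pair's sum in the vector library and 89.9% in the NFX1 library.

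The proteins of this pair share 188 residues, 93.5% of the shorter one, but their transcripts differ in base composition, which is 60.6% GC for RAB1B and 39.5% for RAB1A. The stretch shown here codes for the same 30 residues in both genes, codons 4 to 33 of RAB1A and 1 to 30 of RAB1B (GENCODE 29 coding sequences, 5′ to 3′). Capitals mark the 18 bases that differ, 14 of them at the third position of a codon.
RAB1A: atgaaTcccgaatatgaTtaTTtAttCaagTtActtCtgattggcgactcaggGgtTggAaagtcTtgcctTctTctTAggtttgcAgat
RAB1B: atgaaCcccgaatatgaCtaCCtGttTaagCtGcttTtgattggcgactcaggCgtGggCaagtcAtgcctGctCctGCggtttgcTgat
Of its 90 bases, 35 are G or C in RAB1A and 46 in RAB1B. It is shown because the member richer in GC is the one with the higher value in the NFX1 library, a pattern that recurs below.

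RAB2A, which acts in traffic between the Golgi and the endoplasmic reticulum, had 41.1 FPKM with the empty vector and 36.5 with NFX1, and its paralogue RAB2B had 8.68 and 8.96 FPKM. RAB6A, the main Golgi Rab for retrograde transport, had 19.5 and 16.4 FPKM, 0.839 times the vector level (counting interval 0.751 to 0.939). RAB6B had 5.67 and 6.32 FPKM, so its share of the pair was 22.5% in the vector library and 27.8% in the NFX1 library. RAB36 had 5.42 and 6.51 FPKM. RAB33B, whose product binds an autophagy factor, had 1.39 and 1.19 FPKM in the row used and 0.844 and 0.866 FPKM in another row at the same locus, so its level is uncertain. The remaining 7 genes of this route were under 1 FPKM in both libraries. Of these, RAB30 was the highest at 0.748 and 0.621 FPKM, RAB39A had 0.581 and 0.555, RAB41 0.296 and 0.266, and RAB39B 0.236 and 0.308 FPKM. RAB33A had 0.0328 FPKM in the vector library and was listed at 0 in the NFX1 library, and RAB6C and RAB19 were listed at 0 in both.

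Early endosome Rabs had a median change of -0.10 over 6 expressed genes of 7, with 2 above 0 and none past 1.2-fold. The 3 RAB5 genes encode the proteins that govern fusion of early endosomes and recruit the lipid kinase and tethers of that compartment. RAB5C was the dominant one, with 185 FPKM with the empty vector and 217 FPKM with NFX1, 1.17 times, with a counting interval that lies above 1 and starts at 1.14. RAB5B had 30.9 and 31.6 FPKM, with an interval of 0.960 to 1.08 that includes no difference. RAB5A had 14.0 and 12.2 FPKM, 0.868 times the vector level (interval 0.782 to 0.963). The order of the 3 changes, 0.22, 0.03 and -0.19, was the order of their transcript GC content, 56.3%, 49.8% and 41.1%.

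The next stretch codes for the same 30 residues in all 3 genes, codons 17 to 46 of RAB5A and RAB5B and 18 to 47 of RAB5C. It holds 38, 40 and 47 bases of G or C in RAB5A, RAB5B and RAB5C. Capitals mark the 29 positions at which the 3 are not all alike, 27 of them at the third position of a codon.
RAB5A: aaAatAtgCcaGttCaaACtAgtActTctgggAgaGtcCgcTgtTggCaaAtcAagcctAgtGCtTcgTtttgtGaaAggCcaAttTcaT
RAB5B: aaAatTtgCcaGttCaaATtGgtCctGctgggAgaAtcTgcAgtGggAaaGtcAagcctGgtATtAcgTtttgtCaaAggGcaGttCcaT
RAB5C: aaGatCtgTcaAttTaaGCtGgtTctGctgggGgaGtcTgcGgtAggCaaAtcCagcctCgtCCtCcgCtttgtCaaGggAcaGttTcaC
It is shown because these paralogues keep the protein while differing in composition, in the same order as their changes.

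Among the other early endosome genes, RAB22A, which acts in sorting from early endosomes, had 31.5 FPKM with the empty vector and 26.6 with NFX1, 0.842 times the vector level (counting interval 0.815 to 0.871). Its close relative RAB31 had 11.4 and 9.97 FPKM, 0.873 times the vector level. RAB21, which takes part in integrin traffic, had 11.4 and 11.2 FPKM. RAB20, a Rab described as hypoxia-induced, was low in these hypoxic cells, at 0.307 and 0.457 FPKM. That corresponds to an estimated 12 and 21 fragments, and its interval of 0.723 to 3.43 leaves a difference undetectable at this depth.

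Recycling endosome Rabs had a median change of 0.02 over 6 expressed genes of 7. RAB11B and RAB11A encode the Rabs that return receptors from the recycling endosome to the surface. RAB11B (chromosome 19, 8439260 to 8469317, hg19) had 126 FPKM with the empty vector and 152 FPKM with NFX1, a change of 0.27 with a counting interval of the ratio from 1.15 to 1.26. It was the member nearest above the limit of 0.26, and RAB35 was the nearest below it. Its antisense gene RAB11B-AS1 lies at the same locus with 3.03 and 3.27 FPKM. Whether the authors counted by strand is not given in the sources used here, so the reads of the pair cannot be told apart. RAB11A had 27.4 and 26.7 FPKM, with an interval of 0.887 to 1.07.

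RAB11B and RAB11A also differ in composition, with 57.9% and 41.3% GC over the transcript. The first 30 codons of the 2 genes encode the same residues and differ at 19 bases, all of them at the third position of a codon and set in capitals.
RAB11A: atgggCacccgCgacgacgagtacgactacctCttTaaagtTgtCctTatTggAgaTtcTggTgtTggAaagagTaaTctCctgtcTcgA
RAB11B: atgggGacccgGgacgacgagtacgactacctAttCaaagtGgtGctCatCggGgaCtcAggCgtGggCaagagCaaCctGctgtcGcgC
Of the 30 bases at the third position, 15 are G or C in RAB11A and 27 in RAB11B.

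RAB35, which works in fast recycling, had 29.7 FPKM with the empty vector and 35.3 with NFX1, 1.19 times the vector level (counting interval 1.11 to 1.27). RAB14, of the route between Golgi and endosomes, had 21.2 and 19.8 FPKM. RAB15 had 8.06 and 8.53 FPKM at a locus that the table shares with MAX, GPX2 and a row of CHURC1 and FNTB, so its value is uncertain. RAB17, an epithelial Rab of transcytosis and apical recycling, had 18.6 and 15.9 FPKM, 0.856 times the vector level (interval 0.756 to 0.969). With 57.7% GC it was 1 of only 2 members of at least 50% GC that had a lower value in the NFX1 library. RAB25, the epithelial relative of RAB11, was at 0.0674 and 0.117 FPKM, an estimated 2 and 4 fragments.

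Late endosome and lysosome Rabs held 2 of the 3 genes that were lower with NFX1 by at least 1.2-fold, RAB29 and RAB9A, while the median change over 6 expressed genes of 8 was -0.02. With the pseudocount of 1 these 2 had the lowest changes of the 43, but the secretory RAB3B had the lowest ratio, and with a pseudocount of 0.1 it was at -0.40, beside -0.40 for RAB29 and -0.36 for RAB9A. RAB9A (chromosome X, 13707240 to 13727944, hg19) returns mannose 6-phosphate receptors from late endosomes to the Golgi. It had 47.0 FPKM with the empty vector and 36.6 with NFX1, 0.779 times the vector level (counting interval 0.727 to 0.836). RAB29 (chromosome 1, 205737114 to 205744610), a Rab of the Golgi and of stressed lysosomes that binds the kinase LRRK2, had 12.4 and 9.38 FPKM, 0.754 times the vector level (interval 0.659 to 0.863). Both stayed at least 1.2-fold lower in all 11 alternative settings that gave them a value, but filters, row status and repeated rows could not alter their values. Pseudocounts, scalings and removal of the trend could. The changes then ran from -0.44 to -0.28 for RAB29 and from -0.42 to -0.30 for RAB9A. That 2 of the 3 lower genes fall in this group depends on placing RAB29 here rather than with the Golgi. RAB7A, the central Rab of late endosomes and of their fusion with lysosomes, had 138 and 133 FPKM. Its interval of 0.908 to 1.03 includes no difference.

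RAB32, which serves lysosome-related organelles, had 63.7 FPKM with the empty vector and 66.7 with NFX1. RAB24, linked to autophagy, had 25.1 and 28.5 FPKM, 1.14 times the vector level (counting interval 1.04 to 1.24). RAB12, which sends the transferrin receptor to degradation, had 9.60 and 9.65 FPKM. RAB9B, at 0.0233 and 0.0135 FPKM, was near the floor, and RAB38 was listed at 0 in both libraries. The summed FPKM of the expressed genes of this group was 296 in the vector library and 284 in the NFX1 library. That is a ratio of 0.961, where the sum over all expressed genes had a ratio of 1.1 and the other 5 groups ran from 1.01 to 1.14. With equal upper quartiles the ratio was 0.913, and the secretory group and the genes outside these routes were also below 1, at 0.964 and 0.959. The largest difference within the sums of the late endosome and lysosome group was that of RAB9A, at 47.0 and 36.6 FPKM.

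Secretory and plasma membrane Rabs had a median change of 0.00 over 11 expressed genes of 13. RAB26, a Rab of secretory granules (chromosome 16, 2198145 to 2204162, hg19), had 13.5 FPKM with the empty vector and 18.9 with NFX1. It was at 1.40 times the vector level (counting interval 1.25 to 1.58). Its change of 0.46 was the greatest of the 43 with the pseudocount of 1, but with a pseudocount of 0.1 RAB40B was above it, at 0.55 against 0.48. RAB37, another granule Rab (chromosome 17, 72667256 to 72743474), had 7.53 and 9.27 FPKM, 1.23 times, with an interval that lies above 1 and ends at 1.38. RAB3B, of regulated exocytosis (chromosome 1, 52373628 to 52456436), had 2.51 and 1.88 FPKM, 0.749 times the vector level (interval 0.678 to 0.829). Granule and exocytosis Rabs thus stood near both ends of the range.

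Of the other RAB3 genes, RAB3D had 18.3 FPKM with the empty vector and 19.6 with NFX1, and RAB3A had 3.47 and 3.91 FPKM. RAB3C had 15.8 and 17.3 FPKM in the row used, but another row of the same symbol and locus had 0.0372 FPKM and 0. Which row holds the RAB3C transcript cannot be told from the table, so its level is uncertain and counts are also given without it. RAB27A, which docks lysosome-related organelles and exosome-forming compartments at the plasma membrane, had 3.13 and 2.70 FPKM, with an interval of 0.701 to 1.07. RAB27B had 0.292 and 0.315 FPKM, an estimated 56 and 68 fragments. RAB44 was listed at 0 in both libraries.

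The constitutive exocytic Rabs differed little. RAB13, of tight junction traffic, had 57.7 FPKM with the empty vector and 54.1 with NFX1. RAB10, which moves transporter vesicles to the surface, had 30.7 and 28.1 FPKM, 0.916 times the vector level (counting interval 0.870 to 0.965). RAB8A, of polarized exocytosis and cilia, had 45.9 and 46.0 FPKM, and RAB8B had 3.25 and 2.88 FPKM.

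RAB8A and RAB8B encode the same residues over codons 57 to 86, which differ at 15 bases, 14 of them at the third position of a codon and all marked by capitals.
RAB8B: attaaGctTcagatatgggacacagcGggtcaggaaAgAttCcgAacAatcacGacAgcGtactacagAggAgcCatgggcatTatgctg
RAB8A: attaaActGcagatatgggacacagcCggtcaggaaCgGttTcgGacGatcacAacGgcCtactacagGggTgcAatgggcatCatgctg
They are shown as a pair with a large contrast in transcript GC, 53.3% for RAB8A and 36.2% for RAB8B, and only a small difference in change, 0.00 and -0.13. The stretch itself holds little of that contrast, with 48 of its 90 bases G or C in RAB8A and 44 in RAB8B.

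Rabs placed outside these routes had a median change of -0.00 over 6 expressed genes of 7. RAB40C and RAB40B carry a SOCS box and act in ubiquitin ligases. RAB40C (chromosome 16, 637796 to 679958, hg19) had 14.4 FPKM with the empty vector and 17.7 with NFX1, 1.23 times the vector level (counting interval 1.14 to 1.34). RAB40B (chromosome 17, 80614601 to 80656598) had 1.58 and 2.36 FPKM, a change of 0.38. The interval of its ratio, 1.15 to 1.96, is wide, from an estimated 91 and 155 fragments. RAB40A had 0.0510 FPKM in the vector library and was listed at 0 in the NFX1 library. RAB42 had 28.8 and 25.8 FPKM, 0.898 times the vector level (interval 0.825 to 0.979). RAB18, of lipid droplets and the endoplasmic reticulum, had 7.64 and 7.12 FPKM. RAB28 had 4.82 and 4.43 FPKM and RAB23, a negative regulator of Hedgehog signalling, 3.26 and 3.53 FPKM.

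Over the 43 genes, the counting interval of the fold lay above 1 for 11 (25.6%, background 31.1%), below 1 for 14 (32.6%, background 20.5%) and included 1 for 18. Counting error is thus smaller than many of these differences, but it does not include the spread between cultures, which 1 library per group cannot show.

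The changes of Rab genes ran parallel to base composition. Of the 25 members with under 50% GC in the transcript, 5 had a change above 0 (RAB3C, RAB23, RAB2B, RAB5B and RAB12, the last 3 of them below 0 with equal upper quartiles) and the median was -0.11. Of the 18 members with at least 50% GC, 16 had a change above 0 and the median was 0.20, although RAB32 and RAB8A of these were below 0 with equal upper quartiles, at -0.01 and -0.07. The exceptions were RAB17 and RAB42. All 6 genes at least 1.2-fold higher had at least 50% GC and all 3 at least 1.2-fold lower had less. Among all genes, 1181 of those at least 1.2-fold higher had at least 50% GC and 81 had less. Of those at least 1.2-fold lower, 416 had under 50% GC and 117 had at least 50%. The same split held across the table, where 23.3% of genes under 50% GC and 79.6% of the others had a change above 0, so it is not particular to Rab genes. Pearson's r between GC content and change was 0.64 across the 43 Rab genes and 0.57 across 10996 genes, and the corresponding Spearman coefficients were 0.57 and 0.63. These are descriptions across genes of the same pair of libraries, and genes are not independent replicates. Without RAB3C, r was 0.67 over 42 genes. The part of base composition in the differences between both libraries was not tested.

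**Figure D2:**
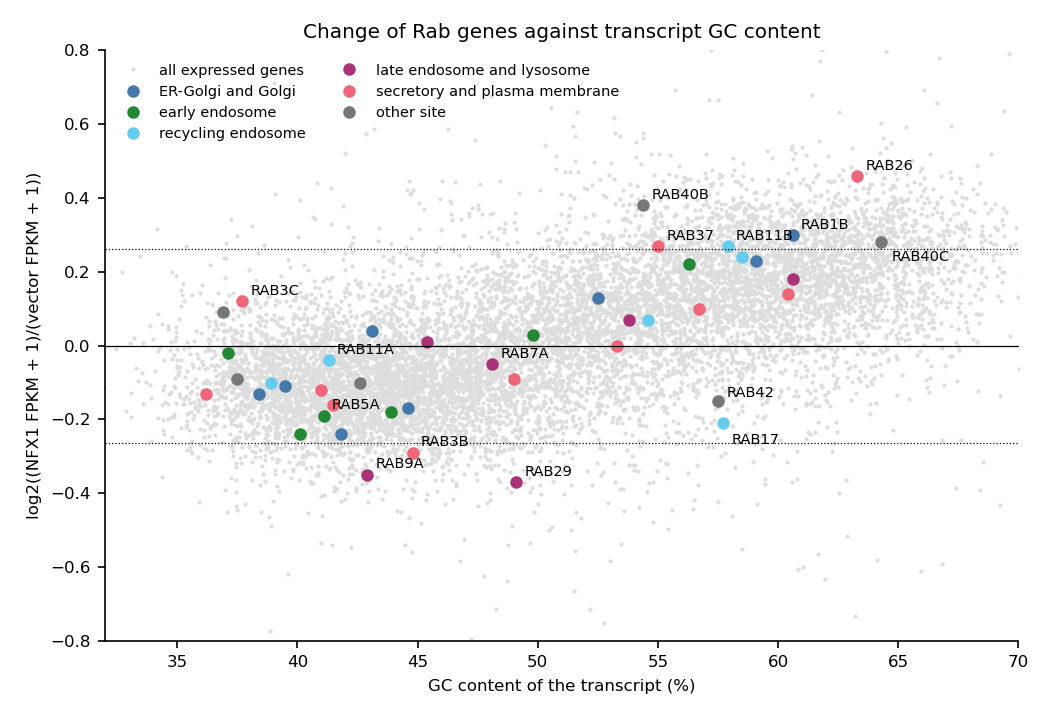
Log2 change, NFX1 over vector, against GC content of the transcript in percent; coloured points are the 43 Rab genes by compartment, grey points the other expressed genes within the plotted range, and dotted lines mark 1.2-fold. Most Rab genes under 50% GC lie below 0 and most above it lie over 0, with RAB17 and RAB42 below 0 at 57.7% and 57.5% GC.

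Paralogues made the pattern visible within single families. The 43 genes hold 16 pairs of paralogues in 9 families, and in 12 pairs the member richer in GC had the greater change, by a median of 0.17 over all pairs. The pairs with the widest differences were RAB1B over RAB1A and RAB3A over RAB3B, each at 0.42, followed by RAB5C over RAB5A at 0.41. The exceptions were RAB2A with RAB2B, RAB40C with RAB40B, and RAB3B and RAB3D with RAB3C. Without the uncertain RAB3C it was 11 of 13 pairs. Pairs from 1 family share members and are not independent. The share of such pairs among all genes was not computed. Change rose with GC content across all 10996 genes too, with a Spearman coefficient of 0.63, so the count is not read as a trait of Rab families. The coding stretches printed above all come from families in which the GC-richer member had the greater change in every pair, so they do not represent the exceptions.

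**Figure D3:**
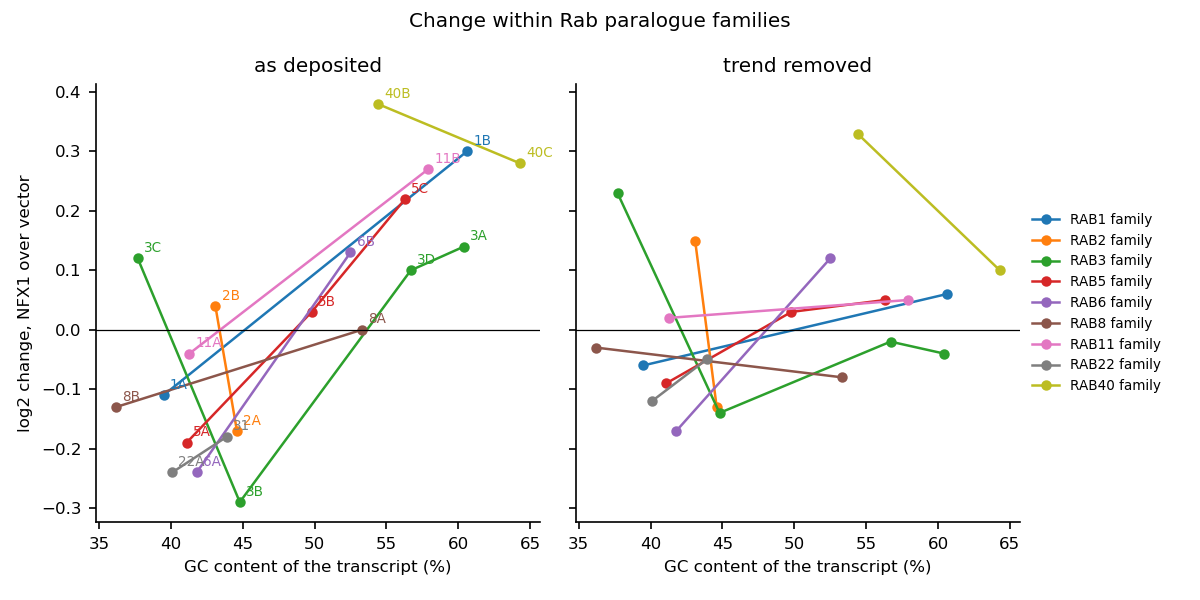
Log2 change, NFX1 over vector, of the members of 9 Rab paralogue families against GC content of the transcript in percent, as deposited (left, members labelled by the end of their symbol) and after removal of the trend (right). On the left most lines climb toward the GC-rich member, and on the right they are flatter or mixed.

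When the trend of change on GC content, transcript length and level over all genes was removed, most of these differences shrank. That trend took 42.0% of the variance of change across the genes within 2-fold on which it was fitted. Afterwards the median over the 43 Rab genes was -0.00 and 19 changes (44.2%) were above 0, against 50.8% of all genes. Then r with GC content was 0.08, and the GC-richer paralogue had the greater change in 9 of 16 pairs, with a median difference of 0.03. The trend was itself fitted on GC content across the table, Rab genes included, and r over all genes was then -0.00. A smaller r and fewer such pairs thus follow from the step and do not test the part of base composition. RAB1B went from 0.30 to 0.06, RAB11B from 0.27 to 0.05, RAB40C from 0.28 to 0.10, RAB37 from 0.27 to 0.20, RAB26 from 0.46 to 0.25 and RAB3B from -0.29 to -0.14. Beyond 1.2-fold there was then 1 gene on the high side, against a background of 3.08%, and 4 genes on the low side, 9.30% of the members against 3.40%. The high one was RAB40B at 0.33. The low ones were RAB17 at -0.37, RAB29 at -0.36, RAB42 at -0.31 and RAB9A at -0.30. RAB40B, RAB29 and RAB9A were the 3 genes past the limit both before and after removal.

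**Figure D4:**
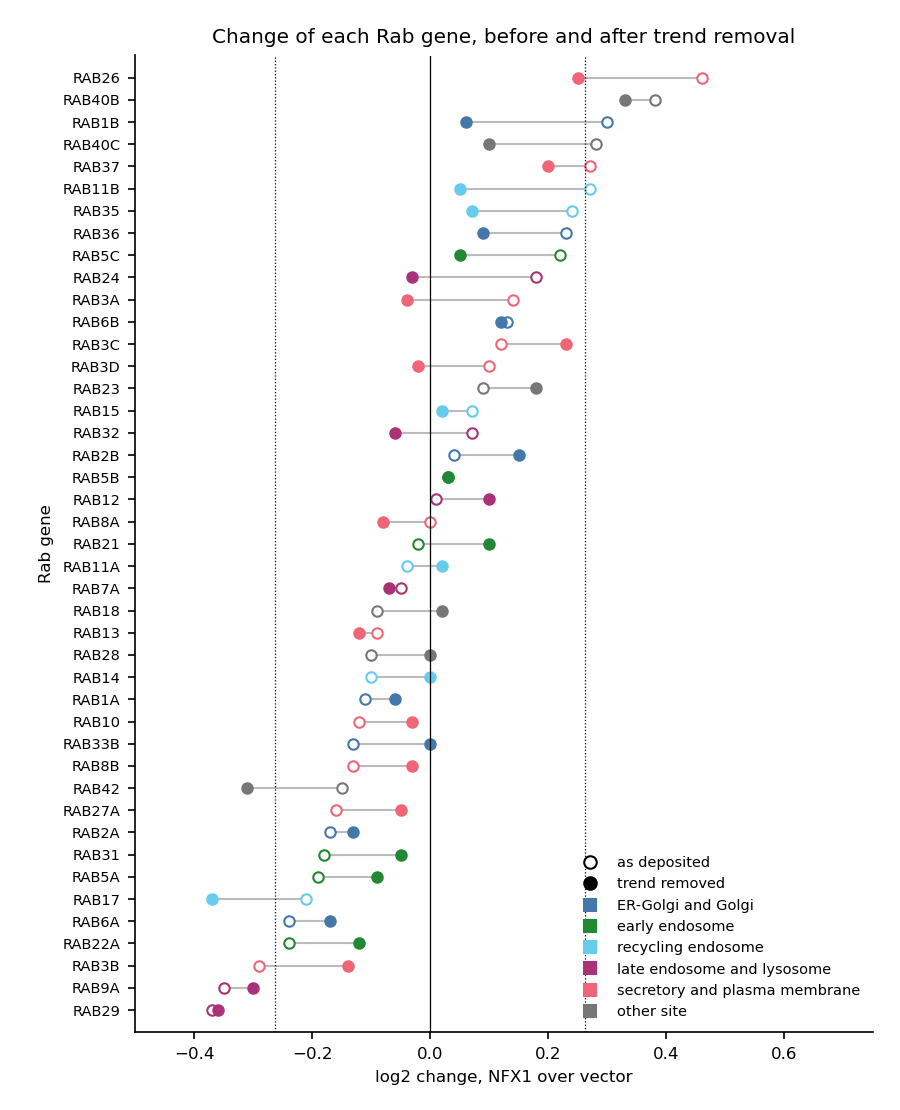
Log2 change, NFX1 over vector, of each of the 43 Rab genes as deposited (open circles) and after removal of the trend with GC content, length and level (filled circles), coloured by compartment, with dotted lines at 1.2-fold. RAB29, RAB9A and RAB40B stay past the lines, RAB17 and RAB42 move past the lower one, and RAB1B and RAB11B move close to 0.

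After removal the late endosome and lysosome group had a median of -0.07, with 5 of its 6 genes below 0. RAB7A was at -0.07, RAB32 at -0.06 and RAB24 at -0.03, while RAB12 was at 0.10. Length is part of the trend, so the value of RAB7A depends on its short annotated length of 533 bp. The group's median lies between RAB7A and RAB32. The early endosome group, lowest as deposited at -0.10, was then at -0.01, the secretory group at -0.03, the recycling group at 0.02, the Golgi group at 0.03 and the genes outside these routes at 0.06. These medians rest on 6 to 11 genes each and describe these libraries. Changes below 0 were also the majority in the secretory group, with 8 of 11 genes. They numbered 4 of 8 in the Golgi group, 3 of 6 in the early endosome group and 2 of 6 in each of the others. Over all genes it was 5414 of 10996.

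Genes that control Rabs or bind their active form also had changes near 0. Of 154 listed regulators and effectors 148 were found and 127 were expressed, with a median change of -0.01. Higher by 1.2-fold or more were 8 (6.30%, background 11.5%), and 4 were lower by as much (3.15%, background 4.95%). With equal upper quartiles 4 were higher (3.15%, background 5.47%) and 13 lower (10.2%, background 10.9%). After removal of the trend 1 was higher (0.787%, background 3.08%) and 2 were lower (1.57%, background 3.40%). The 58 of them with under 50% GC had 6 changes above 0 and the 69 others 55.

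For Rab prenylation and membrane extraction, 10 genes had a median of 0.04. RABGGTA, the alpha subunit of the enzyme that prenylates Rabs, had 13.6 FPKM with the empty vector and 18.2 with NFX1, a change of 0.39, or 0.23 without the trend. ARL6IP5, a relative of the prenylated Rab acceptor, had 12.4 and 9.47 FPKM, a change of -0.36, or -0.29 without the trend. The acceptor itself, RABAC1, had 524 and 602 FPKM. GDI2, which extracts GDP-bound Rabs from membranes, had 70.9 and 64.0 FPKM, a change of -0.15, or -0.10 without the trend. The Rab escort proteins were close in both libraries, with CHM at 4.59 and 4.54 FPKM and CHML at 1.81 and 2.04 FPKM.

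Exchange factors had a median of 0.04 over 39 expressed genes. TRAPPC6A, a subunit of the TRAPP complexes that activate Rab1 and Rab11, had 10.3 FPKM with the empty vector and 15.5 with NFX1, 1.49 times the vector level (counting interval 1.25 to 1.79). Its change of 0.54 was the greatest among the 127 regulators and effectors and was 0.33 after removal of the trend. TRAPPC2L of the same complexes had 109 and 143 FPKM, a change of 0.39, or 0.18 without the trend. RAB3IL1, an exchange factor for Rab8 and a binding partner of Rab3, had 5.72 and 7.85 FPKM, and DENND5B, a DENN-domain protein, 8.22 and 6.28 FPKM.

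GTPase-activating proteins had a median of 0.04 over 31 genes. TBC1D17 had 16.6 FPKM with the empty vector and 20.7 with NFX1, RABGAP1 8.65 and 7.15, TBC1D22A 40.1 and 47.2, and TBC1D10B 28.3 and 32.5 FPKM. Effectors had a median of -0.03 over 47 genes. RAB11FIP4, an adaptor of Rab11, had 4.87 and 6.08 FPKM and RUSC2 19.4 and 22.9 FPKM. VPS41, a subunit of the HOPS tether that works with Rab7 at lysosomes, had 6.96 and 5.63 FPKM, a change of -0.26, or -0.13 without the trend. RUFY1, an early endosome effector of Rab4 and Rab14, had 10.6 and 8.89 FPKM.

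**Figure D5:**
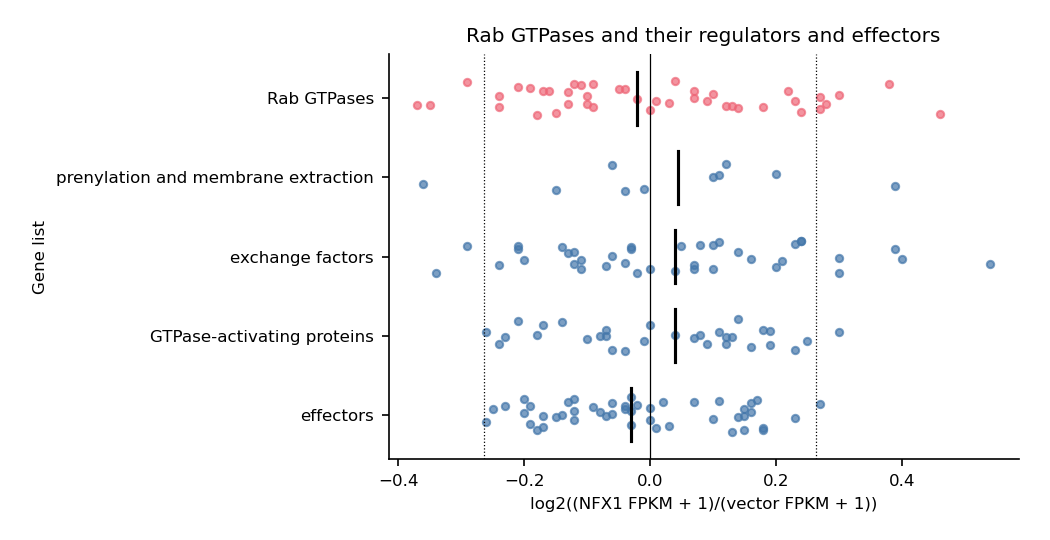
Log2 change, NFX1 over vector, of 43 Rab GTPases and of 127 regulators and effectors by role; each point is 1 gene, spread vertically only for visibility, black bars are medians and dotted lines mark 1.2-fold. The medians lie between -0.03 and 0.04, and few genes of any list lie past the lines.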

How the data were processed

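RNA was sequenced from 1 vector and 1 NFX1 library of PLC/PRF/5 cells, grouped by their genotype labels. The submitters' processing notes name hg19 as the build, Cufflinks at version 2.2.1 and TopHat2 at version 2.1.0. For annotation, strand and scaling nothing was stated. The authors deposited FPKM values, 1 column per library. Per the file headers, each row also holds the authors' log2 ratio, their test score, their p-value and their q-value.

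Rows without a symbol (1651) or with several (492) were left out. The change was computed with a pseudocount of 1 for genes with an FPKM of at least 1 in a library, and 1.2-fold was the limit for counts. Fragments were estimated from olfactory receptor genes, whose lowest steps were taken as the worth of 1 fragment, and from median GENCODE 29 lengths of coding transcripts. GENCODE was matched by symbol and used without coordinates. A short annotated length, as for RAB7A at 533 bp, makes an interval too wide. An annotated length above that of the transcripts in the cells makes it too narrow. Whether this holds for long ones, such as RAB21 at 15546 bp and RAB3B at 12844 bp, was not tested. Locus starts were converted to count from 1. The trend was fitted with cubic splines (3 inner knots) on genes within 2-fold, for 10996 genes.

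Genes always given values were members with an FPKM of at least 5 or past 1.2-fold, RAB5A, RAB7A, RAB11A, RAB20, RAB27A and RAB27B, and up to 4 regulators per role by size of change plus GDI2, CHM and CHML. A result under this rule is not reported here. Other members were named after their values were seen. Members, compartment lists and limits were chosen with earlier results of these data known, and so was the split at 50% GC. Steps were tested on simulated data. Alternatives covered pseudocounts, filters, scalings, repeated rows, row status, fold limits and the trend. Scripts ran in Python 3.11.15 with scipy 1.17.1, pandas 2.3.3 and numpy 2.4.6, and plots were drawn with matplotlib 3.10.9.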

Additional observations from a re-analysis of the deposited data

Results flagged for a closer look

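The symbols RAB34 and NARR share 1 row of the table, which the comparisons above do not use because it holds several symbols. That row was at 138 FPKM with the empty vector and at 179 FPKM with NFX1, a change of 0.37, so its signal was above the level in the control library. RAB34 encodes a Golgi Rab that positions lysosomes, and how the signal divides between both symbols cannot be told from the table. RAB4A, RAB4B and RAB43 also lie in rows with several symbols. The row of RAB4A and SPHAR was at 11.7 and 9.92 FPKM in the vector and NFX1 libraries. That of RAB4B, EGLN2 and MIA was at 109 and 126 FPKM, and that of RAB43, ISY1 and ISY1-RAB43 at 59.3 and 60.9 FPKM. How these signals divide between the symbols cannot be told either.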

How the results depend on the processing

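Of 162 comparisons of a median or count with an alternative, 139 kept the median within its interval or the count within 1.5 times, and 23 did not. For compartment groups of 6 or 8 genes that interval ran from the lowest to the highest change of a gene. Their medians could hardly leave it, so their agreement carries little weight, and no compartment median did. Rab genes at least 1.2-fold higher numbered 6 as reported, 2 with a pseudocount of 5, 2 with equal upper quartiles, 1 after removal of the trend, 10 at a limit of 1.1-fold and 0 at 1.5-fold. Those at least 1.2-fold lower numbered 3 as reported, 6 with equal upper quartiles, 11 at 1.1-fold and 0 at 1.5-fold. Regulators and effectors that were higher numbered 8 as reported, 4 with a pseudocount of 5, 4 with equal upper quartiles, 1 after removal of the trend, 33 at 1.1-fold and 0 at 1.5-fold. Lower ones numbered 4 as reported, 11 with a pseudocount of 0.1, 1 with a pseudocount of 5, 13 with equal upper quartiles, 2 after removal of the trend, 28 at 1.1-fold and 0 at 1.5-fold. Their median of -0.01 was 0.08 among genes with an FPKM of at least 5 and -0.06 with equal upper quartiles. Pairs with the greater change in the GC-richer paralogue were 12 of 16 as reported, 21 of 27 without a filter and 7 of 9 with an FPKM of at least 5, where the number of pairs itself differs. Apart from these limits and numbers of genes, the cause of each shift was not tested.

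The 9 Rab genes past 1.2-fold kept their direction under every alternative that gave them a value. For these 9, pseudocounts, filters, row status, repeated rows and leaving out RAB3C fix the direction by construction. Only equal medians, equal upper quartiles and removal of the trend bear on it. In that order RAB11B was at 0.25, 0.19 and 0.05, and RAB3B at -0.30, -0.33 and -0.14. Direction flipped for RAB12 and RAB8A with equal medians, for RAB12, RAB2B, RAB32, RAB5B and RAB8A with equal upper quartiles, and for RAB11A, RAB18, RAB21, RAB24, RAB32, RAB3A, RAB3D and RAB8A after removal of the trend. The settings without RAB3C and with the lower row of a repeated symbol were chosen after seeing the data. No paired analysis was possible because each group is 1 library and no test was run. With 1 library per group the spread between cultures is unknown. The 14 Rab genes under 1 FPKM rest on at most 56 estimated fragments with the empty vector and 68 with NFX1.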
